A study of Mus musculus with 8 samples.

Results

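The receptors for serotonin, dopamine, noradrenaline and adrenaline, acetylcholine (muscarinic), histamine, ATP and other nucleotides, and adenosine were compared between enteric neural crest-derived cells (ENCDCs) and the other cells of the fetal mouse bowel. Members were taken from the gene count table by symbol, as rows whose names follow *Htr*, *Drd*, *Adra*, *Adrb*, *Chrm*, *Hrh*, *P2rx*, *P2ry* or *Adora* with a subtype number or letter, which gave 48 of the 29092 rows. Bowels were taken from the stomach to the anus at E13.5 from embryos of heterozygous *Ednrb-EGFP* mice mated with C57BL/6J mice, and both populations carry the label wild-type. Bowels with GFP were picked under a microscope before dissociation, so both populations came from embryos that carried the reporter. ENCDCs (4 libraries) were the GFP+ cells of this sort, and gut cells (4 libraries) were its GFP- cells. The reporter marks cells that use *Ednrb*, so ENCDCs here are a mixture of progenitors, young neurons and early glia, and gut cells are all remaining cell types together. RNA was pooled across samples where needed to give 750 pg a library, so replicates measure the spread between libraries.

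Both fast and slow receptors occur in these families. The serotonin 5-HT3 receptors and the P2X receptors are ion channels that open within milliseconds of binding serotonin or ATP, and all other members couple to G proteins: Gs raises cyclic AMP, Gi lowers it, and Gq releases calcium through phospholipase C. In the adult bowel, serotonin from enterochromaffin cells and neurons excites enteric neurons, acetylcholine contracts smooth muscle through muscarinic receptors, noradrenaline from sympathetic fibres slows the bowel, and ATP relaxes smooth muscle through P2Y1.

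The populations matched their labels in most marker lists. Enteric neuron markers summed to 42780 to 51544 reads in ENCDC libraries and to 681 to 816 reads in gut libraries, and progenitor and glial markers to 13553 to 16619 against 371 to 526. Gut libraries held the markers of many other cell types: mesenchyme (2735 to 19575 reads in ENCDC libraries against 144929 to 193011 in gut libraries), smooth muscle (996 to 7625 against 42565 to 51946) and macrophages (72 to 175 against 4981 to 10619). Endothelial sums overlapped (716 to 1178 against 827 to 1280), as did enteroendocrine sums (509 to 642 against 449 to 805). In the test described below, 1 of 7 endothelial markers was higher in ENCDCs (*Kdr*) and 4 lower. Of 5 enteroendocrine markers 1 was higher (*Chga*) and 3 lower, and of 4 markers of interstitial cells of Cajal 1 was higher (*Etv1*) and 3 lower. Among ENCDC libraries, replicate 3 had the highest sums of mesenchyme, smooth muscle, macrophage (175), megakaryocyte and platelet (258) and epithelial (545) markers. Mast cell, erythroid, endothelial, enteroendocrine and interstitial cell sums were highest in other ENCDC libraries. Libraries had been brought to nearly equal depth, 13250893 to 13264785 reads for ENCDCs and 13257119 to 13267220 for gut cells, and the 48 receptors took 0.0108% to 0.0132% of ENCDC reads and 0.0273% to 0.0321% of gut reads. In bulk samples, fewer cells that express a gene and less of its RNA per cell cannot be told apart.

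Of the 48 receptors, 35 had enough reads to be tested (an average of 3 or more reads, with reads in 3 or more of the 4 libraries, in either population). With edgeR's quasi-likelihood test and an adjusted p under 0.05, 5 of the 35 (14.3%) were higher and 16 (45.7%) were lower in ENCDCs. Over all 18866 genes tested, 17.0% were called higher and 20.9% lower, 37.9% in all. Every ENCDC library lay above every gut library for 6 receptors and below for 17, against 15.0% and 22.3% of all genes tested. The median log2 fold change was -1.83 over the 35 receptors and -0.04 over all genes tested. The 5 higher genes were *Htr3a*, *Htr3b*, *Htr4*, *Chrm1* and *Hrh3*. The lower genes included the beta adrenergic receptors *Adrb1* and *Adrb3*, 4 P2Y receptors and 3 of 4 adenosine receptors. By the presence rule, 23 receptors were present in ENCDCs and 29 in gut cells, and 12 had no read in any ENCDC library, while *Hrh3* alone had none in any gut library. Counts were small: 15 receptors in ENCDCs and 14 in gut cells combined a 0 in a library with at least 5 reads in another, and the highest count beside a 0 was 71 in ENCDCs and 35 in gut cells.

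**Figure D1:**
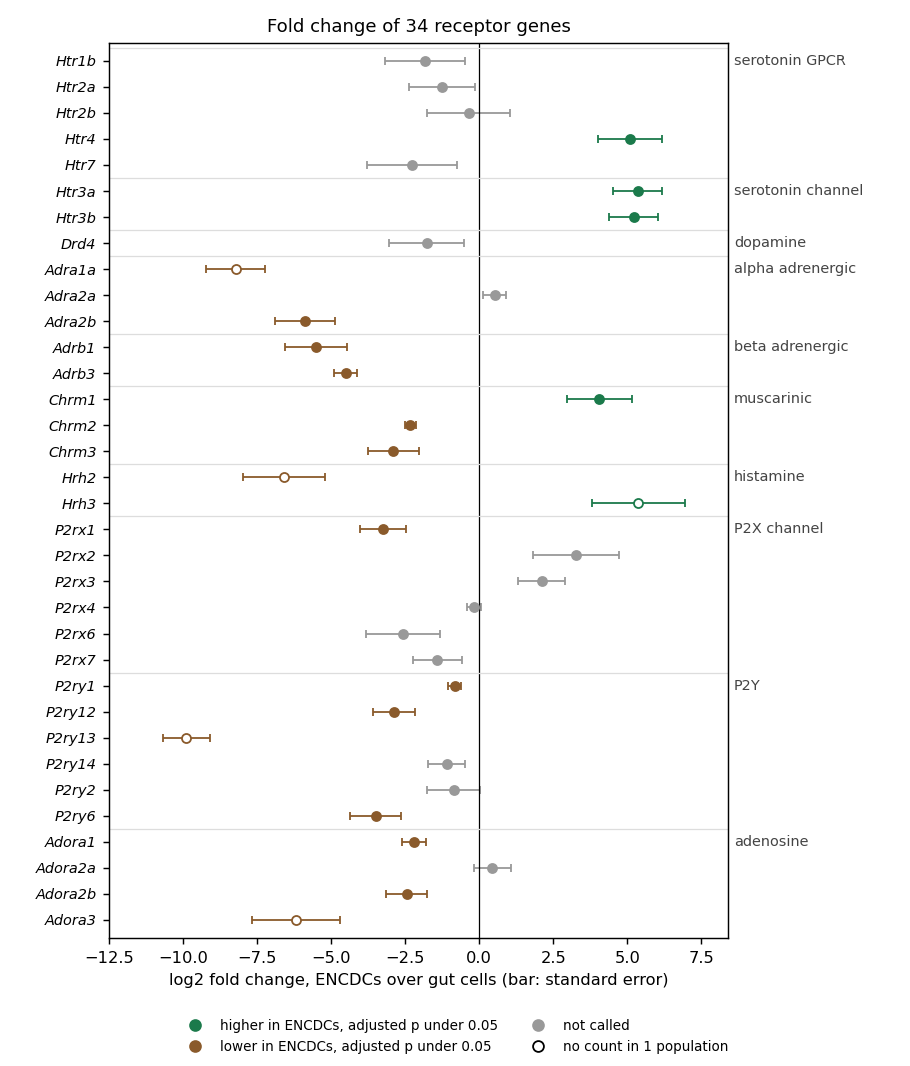
Fitted log2 difference, ENCDCs over gut, with its standard error for 34 of the receptors tested, grouped by family. The serotonin channels *Htr3a* (5.35) and *Htr3b* (5.21) lie far to the higher side, and *Adra2b* (-5.89) and *Adrb1* (-5.52) far to the lower side; open circles mark genes with no read in 1 population, whose fitted values depend on the prior count.

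Promoter windows of a serotonin channel gene and a nucleotide receptor gene show the letters around the starts of genes that moved in opposite directions. The RefSeq annotation (GRCm38.p6) gave a window of 250 bases before to 50 bases after the start for 34 of the 48 receptors, including 2 of the 5 called higher and 12 of the 16 called lower. Both windows below are printed 5′ to 3′ on the gene's strand, at chr9:48964941-48965240 (minus strand) for *Htr3b* and at chr3:59210833-59211132 (minus strand) for *P2ry13*, with matches to the searched motifs in capitals.
Htr3b: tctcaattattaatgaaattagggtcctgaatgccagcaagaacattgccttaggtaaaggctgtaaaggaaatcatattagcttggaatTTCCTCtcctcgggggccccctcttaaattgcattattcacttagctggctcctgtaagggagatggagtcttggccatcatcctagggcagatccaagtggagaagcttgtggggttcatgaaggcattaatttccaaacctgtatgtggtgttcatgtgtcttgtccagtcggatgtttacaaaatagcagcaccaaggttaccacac
P2ry13: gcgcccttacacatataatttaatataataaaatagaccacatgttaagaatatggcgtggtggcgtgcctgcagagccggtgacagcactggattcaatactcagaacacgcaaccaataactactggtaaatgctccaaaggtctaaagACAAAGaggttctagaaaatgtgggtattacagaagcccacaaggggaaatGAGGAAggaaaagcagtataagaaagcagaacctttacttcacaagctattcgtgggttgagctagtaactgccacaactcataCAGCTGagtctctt

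The motifs searched, on both strands, were the proneural E-box (CAGCTG), the core bound by SOX factors (ACAAAG), the core bound by PU.1 (GAGGAA) and the GC box (GGGCGG). The *Htr3b* capitals are the PU.1 core on the reverse strand. In the *P2ry13* window the capitals are, in order, the SOX core, the PU.1 core and the E-box, which occurred in 18.7%, 28.3% and 16.3% of the 32851 promoter windows and in 5, 15 and 8 of the 34 receptors. PU.1 is a master factor of macrophages. The GC box occurred in 35.7% of windows and in 21 receptors. A receptor was counted if any of its windows matched, and some had several windows. The receptor counts therefore cannot be set directly against the shares of windows. A match describes letters only, and binding was not measured.

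Of the serotonin receptors, 3 of 7 tested genes were higher in ENCDCs and none lower. *Htr3a* encodes the obligate subunit of the 5-HT3 channel and *Htr3b* a subunit that joins it and changes its conductance. *Htr3a* had 217, 228, 298 and 108 reads in ENCDC libraries, against 7, 14, 0 and 0 in gut libraries (log2 fold change 5.35, SE 0.83, edgeR adjusted p = 4.15e-04). *Htr3b* had 172, 244, 119 and 163 reads in ENCDC libraries, against 0, 0, 9 and 10 in gut libraries (log2 fold change 5.21, SE 0.82, edgeR adjusted p = 4.66e-04). Neither gene's lowest ENCDC library came near its highest gut library. The genes lie 23.9 kb apart on the minus strand of chromosome 9 with no coding gene between them (*Htr3a* at 48899213-48911099, *Htr3b* at 48935008-48964990, mm10). *Htr4*, a Gs-coupled receptor that promotes transmitter release and is a target of prokinetic drugs, had 10, 14, 6 and 19 reads in ENCDC libraries, against 0, 0, 1 and 0 in gut libraries (log2 fold change 5.09, SE 1.09, edgeR adjusted p = 0.00360). The ratio of its summed counts was 50.7, with an exact 95% interval of 8.68 to 2043 that covers counting error only. Leaving out 1 library gave log2 fold changes of 4.95 to 6.46 for *Htr3a* (highest without gut replicate 2). The range was 4.78 to 5.85 for *Htr3b* (highest without gut replicate 4) and 4.77 to 6.66 for *Htr4* (highest without gut replicate 3). The 6.66 depends on the prior count, since the remaining gut libraries held no *Htr4* read.

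The other serotonin receptors tested, *Htr1b* (Gi), *Htr2a* and *Htr2b* (Gq) and *Htr7* (Gs), had log2 fold changes of -1.83, -1.26, -0.36 and -2.27 and were not called. Single libraries decided much of these values. *Htr1b* was at -7.35 and was called without ENCDC replicate 2 (edgeR adjusted p = 0.00391). That value depends on the prior count, since the remaining ENCDC libraries held no *Htr1b* read. Without gut replicate 3, *Htr1b* was at -1.31. *Htr2a* was at -2.03 without ENCDC replicate 4 and at -0.85 without ENCDC replicate 3. *Htr2b* was at -2.91 without ENCDC replicate 2 and at 1.42 without gut replicate 3. It shares some exonic bases with the abundant gene *Psmd1*, so part of its reads may belong there. *Htr7* was at -4.67 without ENCDC replicate 4 and at -0.73 without gut replicate 4. *Htr1d*, *Htr5b* and *Htr6* had too few reads to test. Among dopamine receptors, *Drd4* (Gi) was at -1.78 and was not called, but was at -4.32 and called without ENCDC replicate 4 (edgeR adjusted p = 0.0374) and at -1.16 without gut replicate 3, and *Drd1*, *Drd2* and *Drd3* were too low to test. *Htr1a*, *Htr1f*, *Htr2c*, *Htr5a*, *Drd5*, *Chrm5*, *Hrh1* and *P2ry4* were not analysed here.

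**Figure D2:**
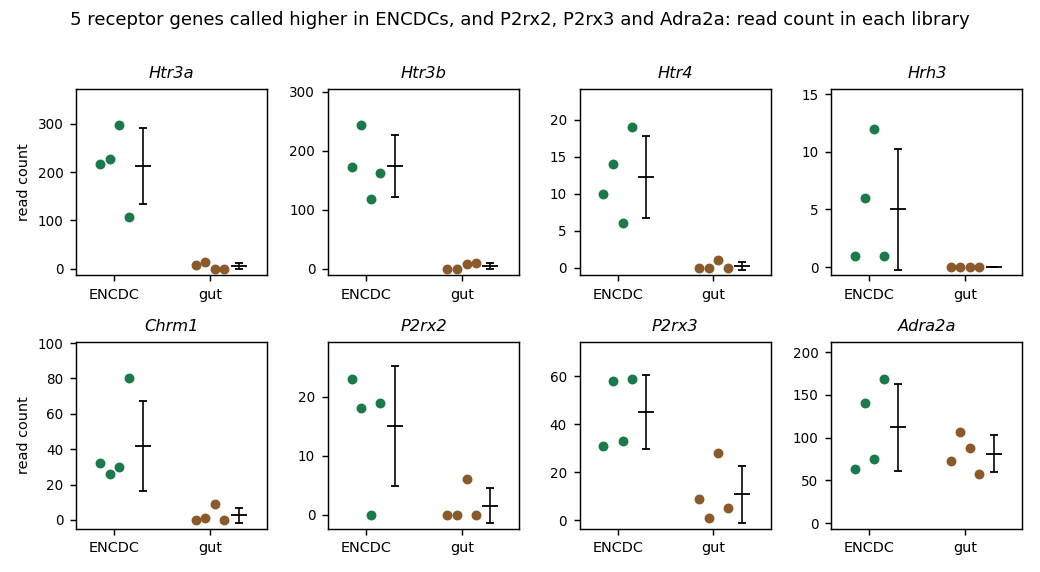
Read counts per library (points; ENCDC left, gut right) for the 5 receptors called higher in ENCDCs and for *P2rx2*, *P2rx3* and *Adra2a*, with mean and SD beside the points. *Htr3a* and *Htr3b* separate widely (means of 213 against 5.25 and 174.5 against 4.75 reads), while *Adra2a* overlaps.

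Of 6 adrenergic receptors tested, 5 were lower in ENCDCs and none higher. *Adrb3*, a Gs-coupled receptor known for relaxation of gut and bladder muscle and for lipolysis in fat, had 14, 7, 35 and 18 reads in ENCDC libraries, against 434, 509, 348 and 467 in gut libraries (log2 fold change -4.52, SE 0.39, edgeR adjusted p = 5.72e-06). Its highest ENCDC count was in replicate 3, which had the highest ENCDC sums for mesenchyme, muscle and several other cell types. The part of those cells in the count was not tested. *Adrb1*, the heart's main beta receptor, had 0, 1, 0 and 0 reads in ENCDC libraries, against 15, 18, 12 and 25 in gut libraries (log2 fold change -5.52, SE 1.04, edgeR adjusted p = 0.00166). *Adra1a*, a Gq-coupled receptor of smooth muscle, had no read in any ENCDC library, against 31, 40, 33 and 48 in gut libraries (edgeR adjusted p = 3.13e-04). The difference was 49.0-fold when 3 counts are allowed over the ENCDC libraries and the gut reads are taken as exact. *Adra2b* (Gi) had 0, 3, 0 and 0 reads in ENCDC libraries, against 34, 81, 66 and 32 in gut libraries (log2 fold change -5.89, SE 1.01, edgeR adjusted p = 8.86e-04). Without ENCDC replicate 2, the log2 fold change was -8.72 for *Adra2b* and -7.12 for *Adrb1*, since no other ENCDC library held a read of either. These 2 values depend on the prior count. The weakest values with 1 library left out were -5.52 for *Adra2b* and -5.22 for *Adrb1*.

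*Adra2a*, the Gi-coupled autoreceptor that curbs noradrenaline and acetylcholine release, was, with *Adrb3*, present in both populations. It had 63, 141, 75 and 169 reads in ENCDC libraries, against 73, 107, 88 and 57 in gut libraries, and was not called (log2 fold change 0.52, SE 0.39, edgeR adjusted p = 0.332). The libraries of the populations overlapped. *Adra1b*, *Adra1d* and *Adra2c* were too low to test and had no read in any ENCDC library.

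Muscarinic receptors split by subtype. *Chrm2*, the Gi-coupled receptor that is the most abundant muscarinic receptor of gut smooth muscle, had 237, 187, 293 and 332 reads in ENCDC libraries, against 1502, 1347, 1193 and 1398 in gut libraries (log2 fold change -2.32, SE 0.18, edgeR adjusted p = 2.13e-06). It was nonetheless present in every ENCDC library. *Chrm3*, the Gq-coupled receptor that triggers contraction, had 3, 7, 20 and 0 reads in ENCDC libraries, against 58, 48, 76 and 53 in gut libraries (log2 fold change -2.91, SE 0.86, edgeR adjusted p = 0.0204). This call was lost in a test against a 2-fold change (edgeR adjusted p = 0.0702), without ENCDC replicate 1 (0.0517) and without gut replicate 3 (0.0563). Its highest ENCDC count was also in replicate 3, where markers of mesenchyme, muscle and several other cell types were highest. The part of those cells was not tested. Leaving out 1 library gave log2 fold changes of -4.04 (without ENCDC replicate 3) to -2.50. *Chrm1*, the Gq-coupled receptor of neurons, had 32, 26, 30 and 80 reads in ENCDC libraries, against 0, 1, 9 and 0 in gut libraries (log2 fold change 4.06, SE 1.09, edgeR adjusted p = 0.0131). Leaving out 1 library gave *Chrm1* log2 fold changes of 3.53 to 6.57 (highest without gut replicate 3). *Chrm4* was too low to test.

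Of the histamine receptors, *Hrh3*, a Gi-coupled neuronal autoreceptor, had 1, 6, 12 and 1 reads in ENCDC libraries, against 0 in all gut libraries (edgeR adjusted p = 0.0271). The difference was 6.90-fold when 3 counts are allowed over the gut libraries and the ENCDC reads are taken as exact. The call did not hold with DESeq2 (adjusted p = 0.0730), in a test against a 2-fold change (edgeR adjusted p = 0.0603) or with a replicate block (edgeR adjusted p = 0.0869). It was also lost without ENCDC replicates 2 or 3 (edgeR 0.0529 and 0.0531) or without gut replicates 1, 2 or 3 (0.0503 to 0.0530). *Hrh2*, the Gs-coupled receptor of acid secretion, had 0 reads in all ENCDC libraries, against 13, 2, 20 and 14 in gut libraries (edgeR adjusted p = 0.00636), 15.8-fold lower by the same allowance over the ENCDC libraries. *Hrh4* was too low to test.

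**Figure D3:**
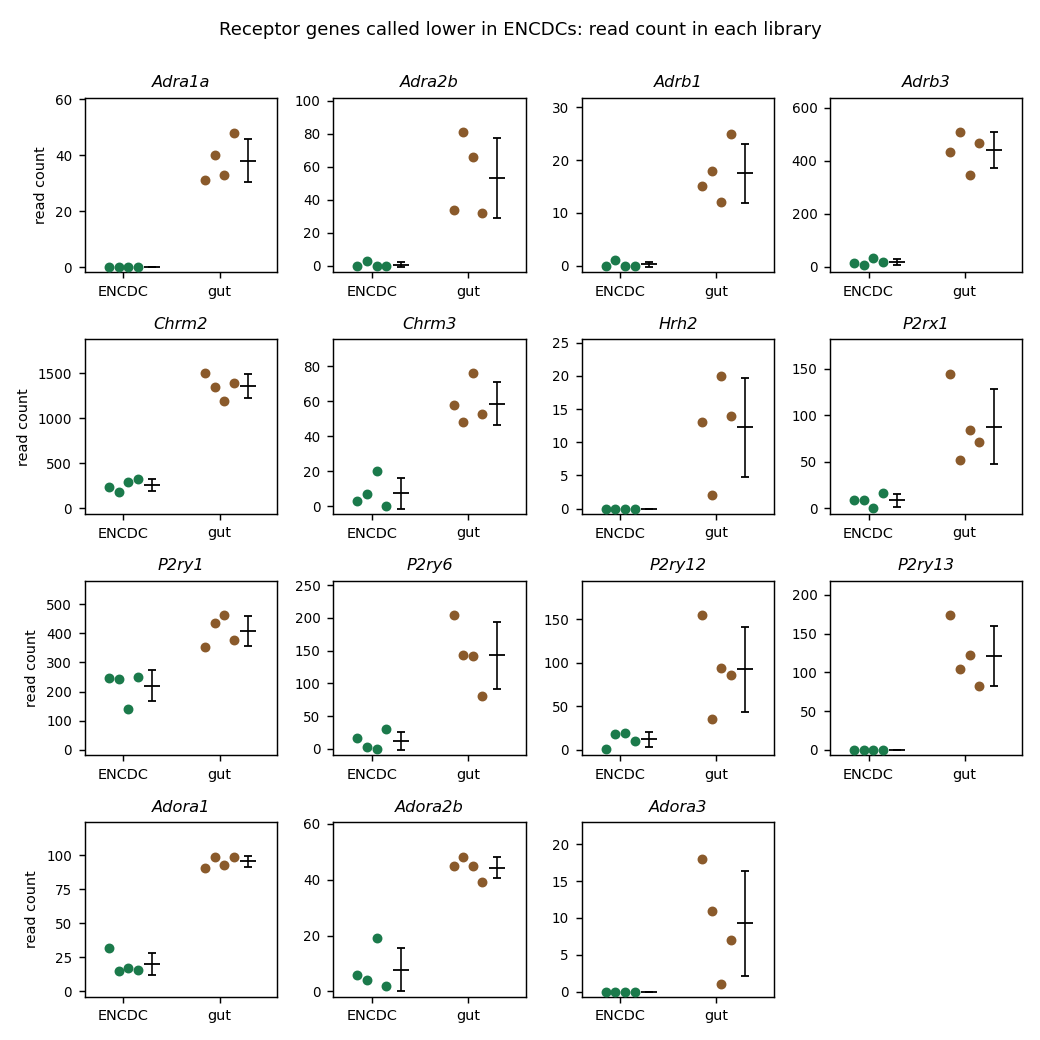
Read counts per library (points; ENCDC left, gut right) for 15 of the 16 receptors called lower in ENCDCs, with mean and SD beside the points. *Adrb3* averaged 18.5 reads in ENCDC libraries and 439.5 in gut libraries, and *P2ry1*, with the smallest change, averaged 220.0 and 406.2.

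Among P2X channels, ENCDCs carried *P2rx4* in a range that overlapped that of gut cells and more reads of *P2rx2* and *P2rx3*, which were not called. *P2rx3*, a subunit of sensory neuron channels, had 31, 58, 33 and 59 reads in ENCDC libraries, against 9, 1, 28 and 5 in gut libraries (log2 fold change 2.11, SE 0.79, edgeR adjusted p = 0.0558), with no overlap between the libraries. It passed with DESeq2 (adjusted p = 0.0283), with voom and limma (adjusted p = 0.0111), without ENCDC replicate 3 (edgeR 0.0421) and without gut replicate 3 (edgeR 0.0116, log2 fold change 3.20). Leaving out 1 library gave log2 fold changes of 1.70 to 3.20. *P2rx3* shares some exonic bases with the abundant gene *Ssrp1*, so part of its reads may belong there. *P2rx2*, which pairs with P2X3 in sensory neurons, had 23, 18, 0 and 19 reads in ENCDC libraries, against 0, 0, 6 and 0 in gut libraries (log2 fold change 3.27, SE 1.46, edgeR adjusted p = 0.103). It passed without ENCDC replicate 3 (edgeR adjusted p = 0.0268) or gut replicate 3 (0.0317). Leaving out 1 library gave *P2rx2* log2 fold changes of 2.85 to 6.95. The 6.95, without gut replicate 3, depends on the prior count, since the remaining gut libraries held no *P2rx2* read. *P2rx4*, widespread in neurons and immune cells, had 168, 196, 231 and 305 reads in ENCDC libraries, against 312, 256, 270 and 218 in gut libraries (log2 fold change -0.18, SE 0.23, edgeR adjusted p = 0.581).

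*P2rx1*, the channel of smooth muscle and platelets, was the P2X gene called lower. It had 9, 9, 0 and 17 reads in ENCDC libraries, against 145, 52, 84 and 71 in gut libraries (log2 fold change -3.25, SE 0.78, edgeR adjusted p = 0.00714). *P2rx7*, the channel of macrophages, had 48, 45, 0 and 71 reads in ENCDC libraries, against 204, 72, 69 and 112 in gut libraries, and was not called (log2 fold change -1.42, SE 0.83, edgeR adjusted p = 0.210). *P2rx6* (-2.58) was not called, and passed with voom and limma (adjusted p = 0.00481) and without ENCDC replicate 3 (-7.12, edgeR adjusted p = 0.00131). The -7.12 depends on the prior count, since the remaining ENCDC libraries held no *P2rx6* read. Leaving out 1 library gave values up to -2.18. Exons of *P2rx6* overlap *Slc7a4*. *P2rx5* was too low to test.

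P2Y receptors were lower or not called, with 4 of 6 tested genes lower. *P2ry1*, the Gq-coupled receptor that carries inhibitory purinergic transmission to gut muscle, had 247, 244, 140 and 249 reads in ENCDC libraries, against 353, 434, 463 and 375 in gut libraries (log2 fold change -0.83, SE 0.22, edgeR adjusted p = 0.0116). This was the smallest change among the called receptors, and in a test against a 2-fold change its edgeR adjusted p was 1. The other 3 called genes are known from macrophages and platelets. *P2ry13* (Gi) had no read in any ENCDC library, against 174, 105, 123 and 82 in gut libraries (edgeR adjusted p = 2.94e-05), 155.9-fold lower with 3 counts allowed over the ENCDC libraries. *P2ry12* (Gi), the platelet ADP receptor, had 1, 18, 19 and 10 reads in ENCDC libraries, against 155, 36, 94 and 86 in gut libraries (log2 fold change -2.89, SE 0.71, edgeR adjusted p = 0.00808). *P2ry6* (Gq), a UDP receptor, had 16, 2, 0 and 30 reads in ENCDC libraries, against 205, 144, 142 and 80 in gut libraries (log2 fold change -3.50, SE 0.87, edgeR adjusted p = 0.00845). Leaving out 1 library gave *P2ry6* log2 fold changes of -4.50 (without ENCDC replicate 4) to -3.085.

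Macrophage marker sums were 10619, 6441, 7106 and 4981 in gut replicates 1 to 4, so gut replicate 1 had the highest sum. It also had the highest gut count of *P2ry13*, *P2ry12*, *P2ry6*, *P2rx1* and *P2rx7*, and of *Chrm2* (1502), *P2rx4* (312) and *Adora3* (18). *P2ry14* (99) and *P2ry1* (463) were highest in gut replicate 3. In ENCDC libraries the macrophage sum was 72 to 175, and all 10 macrophage markers were lower there. Markers of megakaryocytes and platelets summed to 36 to 258 reads in ENCDC libraries, against 678, 473, 446 and 391 in gut libraries (3 of 7 lower), and mast cell markers to 1 to 32 against 1971, 1238, 1156 and 1233 (5 of 5 lower, with *Mcpt4* at 0 in ENCDCs), so both were also highest in gut replicate 1. The part of these 3 cell types in the receptor counts was not tested. *P2ry14* (-1.11) and *P2ry2* (-0.87) were not called and *P2ry10* was too low to test.

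Adenosine receptors were lower for 3 of 4 genes. *Adora1*, the Gi-coupled receptor of neurons, had 32, 15, 17 and 16 reads in ENCDC libraries, against 91, 99, 93 and 99 in gut libraries (log2 fold change -2.20, SE 0.39, edgeR adjusted p = 0.00117). *Adora2b* (Gs) had 6, 4, 19 and 2 reads in ENCDC libraries, against 45, 48, 45 and 39 in gut libraries (log2 fold change -2.45, SE 0.68, edgeR adjusted p = 0.0153), and was lost in a test against a 2-fold change (edgeR adjusted p = 0.0672). ENCDC replicate 3, with the highest ENCDC sums for mesenchyme, muscle, macrophage, platelet and epithelial markers, held the highest ENCDC count of *Adora2b*. Other lower receptors varied: *P2ry12* was also highest there (19 reads), but *P2rx1* and *P2ry6* had 0 reads there. *Chrm2* was highest in ENCDC replicate 4 (332 reads). The part of any of these cell types in these counts was not tested. Leaving out 1 library gave *Adora2b* log2 fold changes of -3.38 (without ENCDC replicate 3) to -2.14. *Adora3* (Gi) had no read in any ENCDC library, against 18, 11, 1 and 7 in gut libraries (edgeR adjusted p = 0.0119), 11.9-fold lower with 3 counts allowed over the ENCDC libraries. *Adora2a* (Gs) had 34, 30, 8 and 11 reads in ENCDC libraries, against 11, 19, 18 and 15 in gut libraries, and was not called (log2 fold change 0.44, edgeR adjusted p = 0.628).

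Corrected for exon length, the 5-HT3 channels took a larger share of receptor reads in ENCDCs, and Gs- and Gi-coupled receptors a larger share in gut cells. Channels took 49.95% to 60.3% of receptor reads per kb in ENCDC libraries, against 8.91% to 14.5% in gut libraries, and the 5-HT3 channels alone 28.5% to 47.9% against 0.335% to 0.754%. Gs-coupled receptors took 3.74% to 6.17% in ENCDC libraries and 22.7% to 31.9% in gut libraries, and Gi-coupled receptors 16.2% to 24.4% against 39.3% to 44.4%. Gq-coupled receptors overlapped, with 10.1% to 21.6% in ENCDC libraries and 16.8% to 22.8% in gut libraries. The P2X channels alone overlapped in share, with 11.8% to 21.5% in ENCDC libraries and 8.15% to 14.1% in gut libraries, and in level, with 47.5 to 90.3 against 72.7 to 141.8 reads per kb. The other members of the channel class are *Htr3a* and *Htr3b*. Single genes weigh heavily in the other classes too. In gut libraries, Gi-coupled receptors summed to 350.7 to 445.8 reads per kb, with *Chrm2* alone at 224.7. Gs-coupled receptors summed to 197.5 to 284.3 there, with *Adrb3* alone at 130.2. These shares are descriptions and were not tested. Per kb of exon, the highest levels in ENCDCs were *Htr3a* (102.1 ± 37.7 reads per kb, SD, n = 4), *Htr3b* (72.4 ± 21.5), *P2ry1* (51.3 ± 12.4), *Chrm2* (43.3 ± 10.5) and *P2rx4* (32.0 ± 8.43), each overlapping the next. In gut cells *Chrm2* (224.7 ± 21.3) stood apart from *Adrb3* (130.2 ± 20.2), which overlapped *P2ry1* (94.7 ± 11.9) below it.

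**Figure D4:**
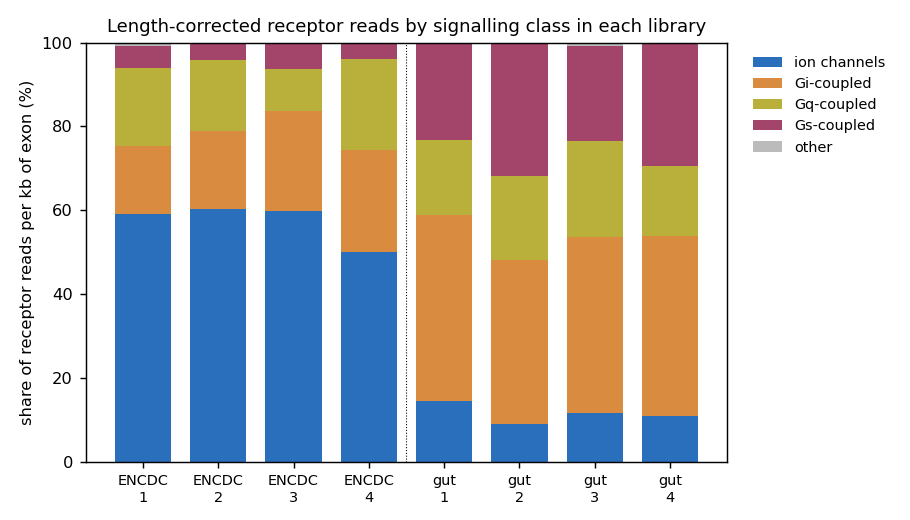
Share of the receptors' reads per kb of exon by signalling class in each library (ENCDC left, gut right). Ion channels made up 49.95% to 60.3% in ENCDC libraries and 8.91% to 14.5% in gut libraries.

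**Figure D5:**
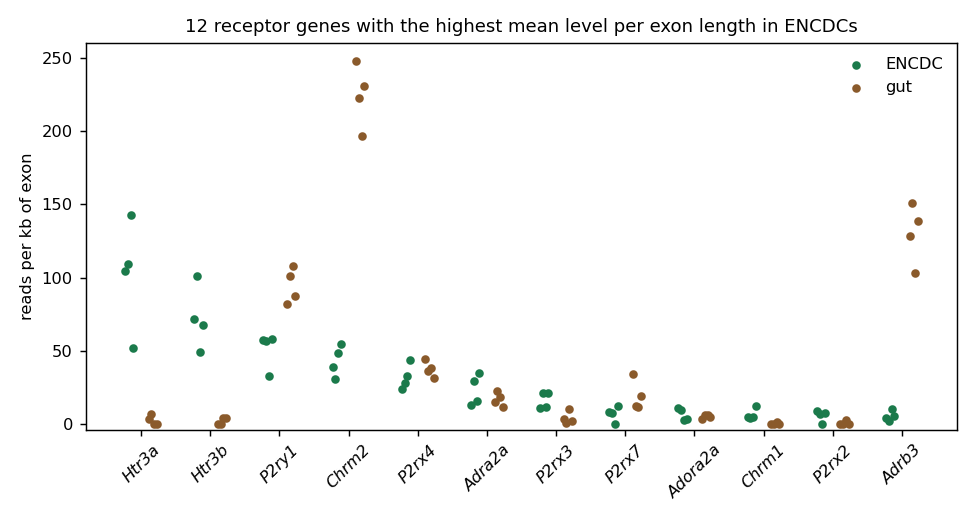
Reads per kb of exon in each library (points; ENCDC left, gut right) for the 12 receptors with the highest mean level in ENCDCs. *Htr3a* has the highest mean in ENCDCs (102.1) and *Chrm2* in gut cells (224.7).

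Several receptor genes are neighbours on their chromosome. *P2ry13* and *P2ry12* lie 5.4 kb apart on the same strand and were both lower. *P2ry14*, 54.3 kb from *P2ry13* on that strand, was not called. *P2ry6* and *P2ry2* lie 21.9 kb apart on the same strand, and *P2ry6* was lower while *P2ry2* was not called. *P2rx7* and *P2rx4* lie 16.1 kb apart and neither was called. In the unstranded counts, *Adora1* overlaps exons of *Mybph* on the opposite strand, and *Htr2b* overlaps exons of the abundant gene *Psmd1* there. *Chrm1*, *Chrm2*, *Hrh2*, *Hrh3*, *Htr1b*, *P2ry1* and *Adrb3* each overlap a noncoding gene on the opposite strand, and *P2ry12* overlaps a few bases of *Med12l*. *Adora3* and *P2rx7* share exonic bases with *Tmigd3* and *Mir8115* on the same strand. Some reads of these receptors may therefore belong to those genes.

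Genes of the downstream machinery are given beside the shares over all genes tested, 17.0% higher and 20.9% lower, with a median log2 fold change of -0.04. Of 25 G protein subunits tested, 6 were higher (24.0%) and 4 lower (16.0%), shares near those over all genes (median log2 fold change 0.19): *Gng2* (2.00, SE 0.14, edgeR adjusted p = 8.14e-07), *Gnao1*, a Go subunit of neurons (1.39, SE 0.17, edgeR adjusted p = 6.40e-05), *Gnb5* (0.38) and *Gnb1* (0.34) rose, while *Gng12* (-1.88), *Gna14* (-2.82), *Gna15* (-6.02) and *Gnas* (-0.41) fell. Of 13 adenylyl cyclases and phospholipases C beta, 3 were higher (23.1%), *Plcb1* (1.64), *Adcy1* (1.45) and *Plcb4* (0.86), and 5 were lower (38.5%), among them *Adcy7*, the cyclase of blood cells (-7.94), *Adcy4* (-3.94), *Adcy2* (-2.93) and *Adcy3* (-1.68), whose exons overlap *Cenpo*. The median was -0.77. Of 22 receptor kinases, arrestins and RGS proteins, 7 were higher (31.8%) and 5 lower (22.7%), the lower share being near that over all genes (median 0.14). *Rgs4*, which ends Gi and Gq signals, rose by 3.53 (SE 0.16, edgeR adjusted p = 5.08e-08) and *Grk3* by 1.52, with *Rgs3* (0.82) and *Arrb2* (0.61), while *Rgs10* (-2.76), *Arrb1* (-1.22), *Rgs2* (-1.17) and *Rgs19* (-0.79) fell. In a test against a 2-fold change, 1 cyclase or phospholipase was higher, and 4 kinase, arrestin and RGS genes were higher and 2 lower. Over all 18866 genes, that test gave 983 higher and 2031 lower calls, against 3212 and 3946 in the main test.

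Of 19 genes that release or clear ATP, nucleotides and adenosine, 6 were higher (31.6%) and 5 lower (26.3%), against 17.0% and 20.9% over all genes (median 0.04). *Slc29a4*, a monoamine and adenosine transporter, had 1138 ± 111 reads in ENCDC libraries and 84.5 ± 27.1 in gut libraries (SD, n = 4 each; log2 fold change 3.80, SE 0.24, edgeR adjusted p = 4.55e-07). *Panx1*, a channel for ATP release (1.45), *Enpp2* (1.37) and *Entpd3*, which breaks down ATP (3.71), also rose, while the nucleoside transporter *Slc29a1* (-1.51), *Enpp1* (-1.57), the ectonucleotidase *Entpd1* (-2.83) and *Nt5e*, which makes adenosine (-3.65), fell. The 5 lower calls became 3 with DESeq2, 1 in a test against a 2-fold change, 2 without ENCDC replicate 1 or gut replicate 3, and 3 without gut replicate 1, 2 or 4. Over all genes, lower calls numbered 3946 in the main test, 4279 with DESeq2 and 2031 in the test against a 2-fold change. Without 1 of the libraries just named they numbered 3280 to 3565.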

How the data were processed

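Bulk mRNA-seq was analysed for 4 ENCDC and 4 gut cell libraries of E13.5 Ednrb-EGFP bowel, each from 750 pg of RNA that had been pooled where needed. Strand was not kept by the SMARTer and NexteraXT kits. The deposited values are whole read counts per gene, which the authors made by aligning reads to mm10 with STAR 2.4.2a and normalizing with PORT, using the minimum normalized count. GEO's design text mentions small RNAs and CPM, but the values are whole numbers with totals as high as sequenced mRNA gives, and were treated as mRNA counts. Total counts were 13250893 to 13267220, so precision is limited by counting for genes with few reads.

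The fit of ENCDCs against gut cells used edgeR 4.0.16 under R 4.3.3 (TMM factors, quasi-likelihood F test, Benjamini-Hochberg adjustment over 18866 genes, threshold 0.05). Standard errors (SE) were derived from each log2 fold change and its F statistic, so they add nothing independent of the p-value. Tested genes averaged 3 or more reads, with reads in 3 or more of the 4 libraries, in either population. Limma 3.58.1 (voom) and DESeq2 1.42.0 were alternatives, along with RLE or no factors, no filter or a minimum mean of 10, a replicate block, a test against a 2-fold change and leaving out each library. Exon lengths and overlaps came from GENCODE M21, with all 48 receptor IDs found. Python 3.11.15, pandas 2.3.3, scipy 1.17.1 and matplotlib 3.10.9 were used for tables, exact intervals and figures.

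Called receptors were given by sample, as were those not called with a mean of at least 100 in a population, and *P2rx2*, *P2rx3* and *Adora2a* were added after their values were seen; 1 called receptor is not reported by sample here. From each signalling list, up to 4 called genes per direction with the highest mean count were named. The members and lists were chosen with earlier results of these data known. Replicate numbers were not treated as pairs: same-number correlations of deviations ran from -0.013 to 0.032, which cannot exclude pairing. For a fold where a population had no read, that population was given 3 reads over its libraries. The other population's reads were taken as exact, so these folds leave out their counting error and the spread between libraries. Receptor genes of these families with no row matched were not analysed here, and smRNA-seq was not analysed here.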

Additional observations from a re-analysis of the deposited data

Results flagged for a closer look

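In 8 of 47 groups of 4 libraries a count lay apart from the other 3 by more than Dixon's critical value for 4 samples. Chance flags about 1 in 20 groups of continuous values, but 4 of the 8 are groups with 0 in 3 libraries, which pass this measure at any count in the last library, so the rate does not apply to them. These were *Adra2b* (3 reads) and *Adrb1* (1 read), both in ENCDC replicate 2, and *Htr4* (1 read) and *P2rx2* (6 reads), both in gut replicate 3. The others were *Chrm1* in ENCDC replicate 4 (80 reads), *P2ry1* in ENCDC replicate 3 (140 reads, the lowest), *Adora1* in ENCDC replicate 1 (32 reads) and *Chrm1* in gut replicate 3 (9 reads).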

How the results depend on the processing

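Across the alternatives, 4 of 5 receptors called higher and 13 of 16 called lower kept their call, and 6 of 14 not called passed in at least 1. Receptor calls numbered 4 to 6 higher and 13 to 19 lower. With a replicate block, 4 were higher and 16 lower, *Hrh3* had an edgeR adjusted p of 0.0869, and all genes gave 2609 higher and 3324 lower calls. The labels give the libraries a shared number only, and same-number correlations of -0.013 to 0.032 cannot exclude pairing. In a test against a 2-fold change, all genes gave 983 higher and 2031 lower calls, and lists gave 1 cyclase or phospholipase higher, 4 receptor kinases, arrestins or RGS proteins higher and 2 lower, and 1 ATP and adenosine gene lower. That last count was 3 with DESeq2 and 2 to 5 when a library was left out. *Htr2b* (-0.36) ran from -2.91 to 1.42 when a library was left out, and reversed to 0.05 without ENCDC replicate 3 and to 1.42 without gut replicate 3; the cause was not tested. *Htr1b*, *Htr2a*, *Drd4*, *P2rx2*, *P2rx3* and *P2rx6* passed under some alternatives. Depth limits genes near 0 reads, so absence cannot be read from a 0.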
